A study of Rattus norvegicus with 15 samples.

Results

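The genes described here are 9 rows of the deposited count table, chosen by symbol from 17463: the matrix metalloproteinases MMP2, MMP3, MMP9, MMP11, MMP13 and MMP14 and the tissue inhibitors of metalloproteinases TIMP1, TIMP2 and TIMP3. All 9 symbols were found and all 9 had enough reads to be tested. They were read in 15 bulk RNA libraries, each from a piece of a mammary tumour of a Fischer rat. The midkine group (9 libraries) came from rats injected with rat midkine recombinant protein, a heparin-binding growth factor, at 300 ug/kg, 3 times a week. The vehicle group (6 libraries) came from rats labelled as given vehicle. The protocol, which is the same for both groups, also names the carcinogen N-nitroso N-methylurea (NMU), given by intraperitoneal injection at 50 mg/kg once after 2 weeks of treatment and again after 2 further weeks of it. The labels give no age. Some libraries of a group share a title number (midkine 3-1 and 3-2, midkine 4-1, 4-2 and 4-3, vehicle 2-1 and 2-2), and no label says whether these are tumours of 1 animal, so p-values measure only the spread between libraries, part of which may be technical.

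Matrix metalloproteinases are zinc-dependent enzymes that are made as inactive precursors and cut collagens, laminins, proteoglycans and other proteins outside the cell. The TIMPs bind their active sites and block them. In the mammary gland these enzymes are known for remodelling the matrix around growing and involuting ducts, and in tumours many of them come from fibroblasts, macrophages and other stromal cells as well as from the epithelium.

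Libraries held 4925504 to 8486523 counted reads. Levels are given in CPM, a gene's reads relative to the size of its library after scaling by trimmed mean of M-values, and are compared between libraries and never between genes, since transcript lengths were not used here. General epithelial markers (8 genes, EPCAM, KRT8 and KRT18 among them) summed to 2210 to 12734 CPM in midkine libraries and 5115 to 7528 CPM in vehicle libraries. Several midkine libraries stood apart from the rest. Skeletal muscle markers summed to 317134 CPM in midkine 1, and fibroblast markers to 131412 CPM in midkine 5, against no more than 7499 CPM in the other midkine libraries and 562 to 8917 CPM in vehicle. In midkine 4-2 macrophage markers summed to 3032 CPM and T and B cell markers to 1335 CPM, each the highest of the 15 libraries. The 5 midkine libraries numbered 3 and 4 in their titles held 0 or 1 reads of the muscle myosin MYH4, and every other library held 461 or more. In bulk RNA, fewer cells of a type and less RNA per cell cannot be told apart.

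None of the 9 genes passed the threshold of 0.05 in the comparison of midkine with vehicle by edgeR's quasi-likelihood test, with p-values adjusted over all 11665 genes tested. That test called 0 genes in all (0% of those tested), and 1178 had an unadjusted p under 0.05 (10.1%), of which 929 were higher in midkine (7.96%). At that unadjusted level edgeR listed 1 of the 9, MMP13. DESeq2 called 83 of 11427 genes (0.726%), 77 of them higher in midkine (0.674%) and 6 lower (0.0525%), and 0 of the 9. It was run with its defaults, which replace outlying counts in a group as large as midkine, so its values may leave extreme midkine counts out. The fold change was above 0 for 8 of the 9 genes, against 55.7% of all genes tested, and its median was 1.08 on the log2 scale, against 0.04 over all genes. Without the 5 midkine libraries numbered 3 and 4 it was above 0 for 7 of the 9, with a median of 0.19, edgeR called 0 of 11611 genes, and 1188 (10.2%) had an unadjusted p under 0.05, with none of the 9 among them. For none of the 9 were the groups free of overlap, against 0.0171% of all genes. Midkine 3-2 was the highest of all 15 for MMP3, MMP9, MMP13, TIMP1 and TIMP3, and midkine 5 was the highest for MMP2, MMP14 and TIMP2. How many of all genes tested were highest in either library was not computed, so this is a description only. Leaving out midkine 1, the library with the high muscle markers, turned the direction of none of the 9.

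**Figure D1:**
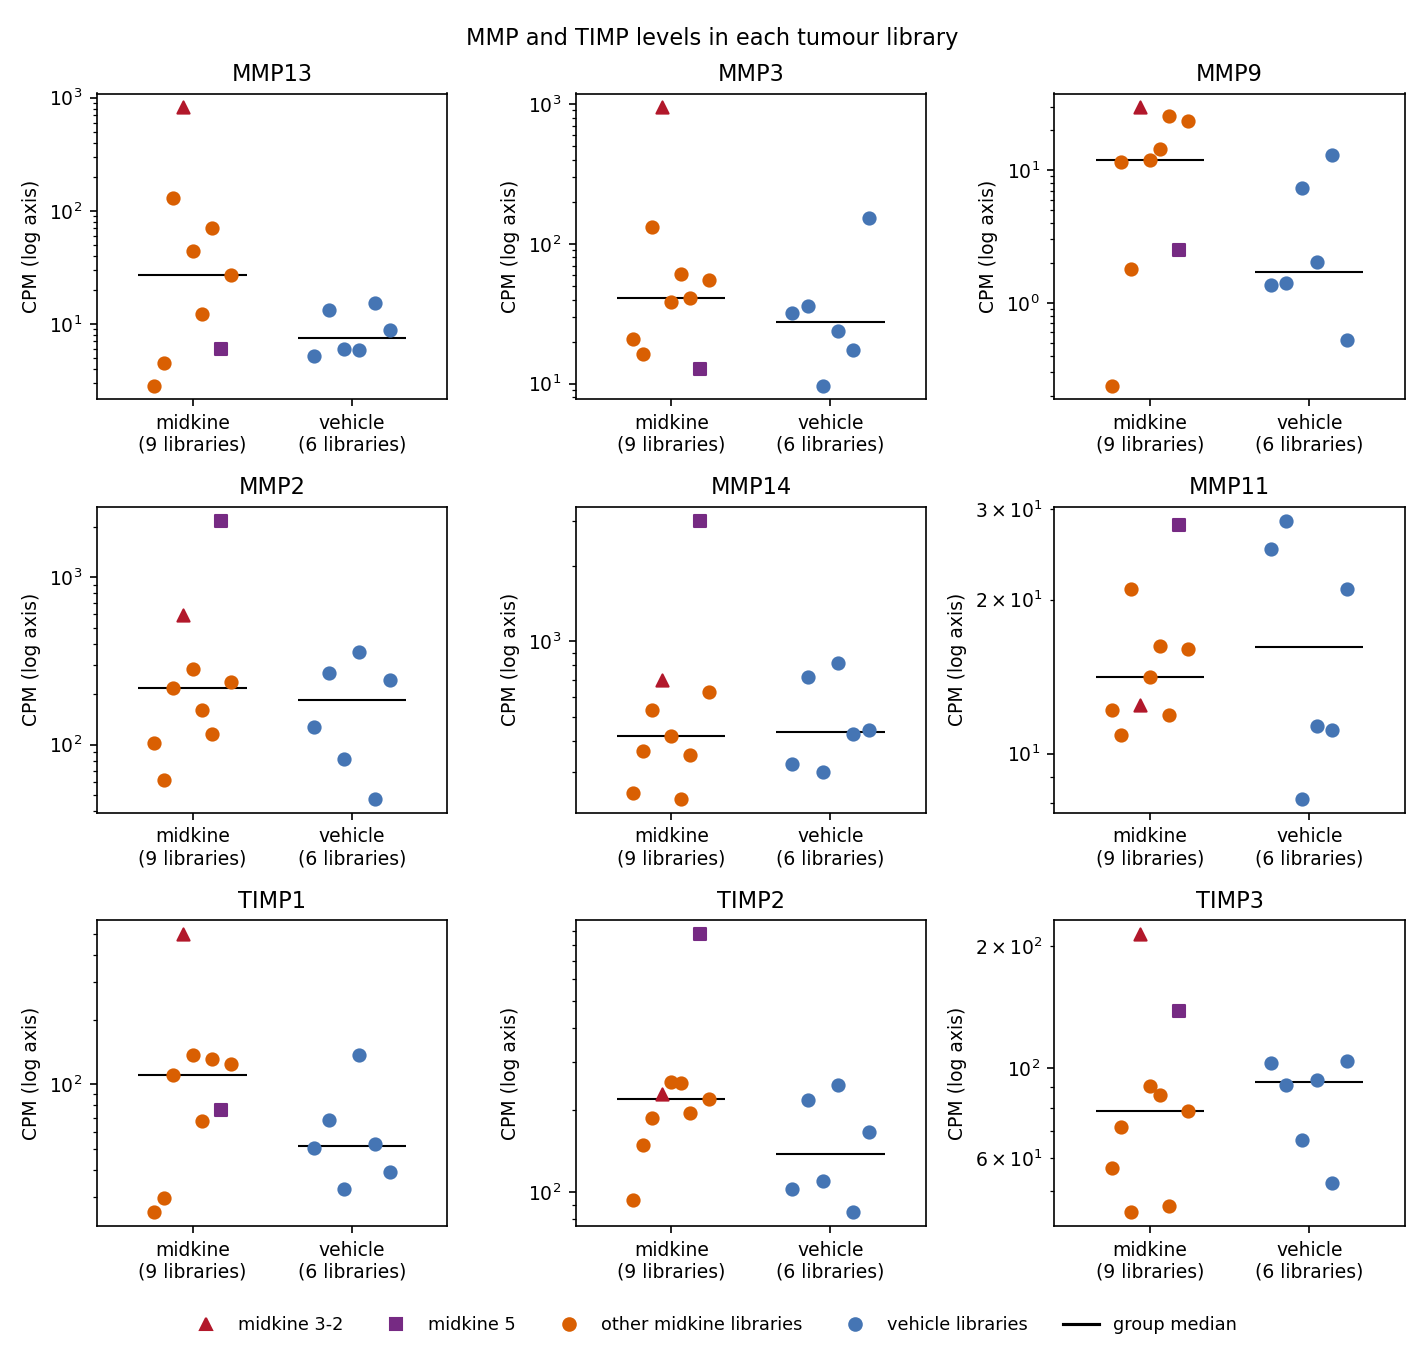
Level of each gene in every library, in CPM on a log axis, with midkine left of vehicle; points are libraries and lines are group medians. Midkine 3-2 (triangle) is the highest point for MMP13, MMP3, MMP9, TIMP1 and TIMP3, midkine 5 (square) for MMP2, MMP14 and TIMP2, and in every panel the groups overlap.

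MMP13, which encodes collagenase 3, an enzyme that cuts fibrillar collagen, varied most. It ran from 2.86 through a median of 27.3 to 821 CPM in midkine libraries and from 5.22 through a median of 7.48 to 15.5 CPM in vehicle libraries. Midkine 3-1, 3-2, 4-1, 4-3 and 6 lay above every vehicle library, while midkine 1 and 2 lay below all of them, so the groups overlapped on both sides. The mean was 124 ± 264 CPM in midkine (SD, n = 9) and 9.13 ± 4.29 CPM in vehicle (SD, n = 6). The log2 fold change by edgeR was 3.77 (SE 1.21, adjusted p = 0.399). Midkine 3-2 alone held 73.4% of all MMP13 reads of the 15 libraries, and its level was 6.27 times that of the next library, midkine 3-1 (131 CPM). Without midkine 3-2 the log2 fold change was 2.03 (SE 0.78), and 0.19 (SE 0.60) without midkine title numbers 3 and 4. DESeq2, which may replace outlying midkine counts, gave 1.94 (adjusted p = 0.133), near the edgeR value without midkine 3-2. The unadjusted p was 0.00659 by edgeR, but limma-voom gave 1.91 (unadjusted p = 0.144). The difference of mean log2 CPM was 1.70 (exact permutation p = 0.141).

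MMP3 encodes stromelysin 1, which cuts many matrix proteins and activates other metalloproteinase precursors. Its level was between 12.6 and 945 CPM in midkine libraries (median 40.7 CPM) and between 9.71 and 153 CPM in vehicle libraries (median 27.8 CPM). Midkine 3-2 was again the extreme, with 62.3% of all MMP3 reads, and it was the only midkine library above the highest vehicle library, vehicle 6. The means were 147 ± 301 CPM in midkine (SD, n = 9) and 45.3 ± 53.7 CPM in vehicle (SD, n = 6), with a log2 fold change of 1.69 (SE 0.99, edgeR adjusted p = 0.602). The value was 0.05 (SE 0.62) without midkine 3-2, 2.62 (SE 1.06) without vehicle 6, and turned to -0.78 (SE 0.74) without midkine title numbers 3 and 4. DESeq2, which may replace outlying midkine counts, gave 0.02 with no p-value for this gene.

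The promoters of MMP3 and MMP13 are shown because these genes had their highest level in the same library and were the only ones, of the 6 with a promoter in the table, that held a match to the AP-1 motif. Each run is the 150 bases before the annotated start site in the direction of the gene, from RefSeq with its build GRCr8. That is not the rn6 build that the submitters' processing notes name, so no coordinates are given. Capitals mark the AP-1 motif TGANTCA and the TATA box TATAAA.
MMP3: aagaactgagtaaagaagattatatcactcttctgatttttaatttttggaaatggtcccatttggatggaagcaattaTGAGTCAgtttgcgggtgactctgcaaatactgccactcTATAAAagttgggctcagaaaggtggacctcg
MMP13: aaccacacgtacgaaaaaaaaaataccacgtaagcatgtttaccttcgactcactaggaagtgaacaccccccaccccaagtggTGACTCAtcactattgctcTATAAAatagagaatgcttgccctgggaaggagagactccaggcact

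The AP-1 match began 71 bases before the start site in MMP3 and 66 bases before it in MMP13, and the TATA box 32 and 47 bases before it. Windows of 300 bases (250 before the start and 50 after) were searched on both strands for 5 motifs, and 6 of the 9 genes had a window: MMP3, MMP11, MMP13, TIMP1, TIMP2 and TIMP3. AP-1 and the TATA box each matched in 2 of the 6, both times MMP3 and MMP13. Of all 33469 windows in the table, 7.33% held the AP-1 motif and 14.2% the TATA box. The GC box GGGCGG matched in MMP11, TIMP1, TIMP2 and TIMP3 (33.1% of all windows) and the PEA3 motif AGGAAG in MMP3, MMP13 and TIMP1 (34.5%), while the NF-kB motif matched in 0 of the 6 (17.3%). No pair of these motifs overlapped in the windows of MMP3 and MMP13. A match is a match of letters and not a measured binding site.

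MMP3 and MMP13 lie in a run of neighbouring metalloproteinase genes. In the GRCr8 gene table the order is MMP13, MMP12, MMP1B, MMP3, MMP1, MMP10, MMP8, MMP27, MMP20 and MMP7. MMP10, which encodes stromelysin 2, reached 86.6 CPM in midkine 3-2 while no other library exceeded 8.39 CPM. MMP12, the macrophage elastase, reached 126 CPM in midkine 3-2 while no other library exceeded 69.8 CPM. For MMP7, or matrilysin, the level was 33.6 CPM in midkine 3-2, while the next library reached 28.3 CPM. MMP13, MMP12, MMP3, MMP10 and MMP7 thus had their highest level in midkine 3-2. The share of all genes tested that were highest in that library was not computed, so this is a description only. MMP27 was highest in midkine 5 (38.6 CPM), MMP8 and MMP20 had 59 and 38 reads over all libraries, the row of MMP1 held 0 reads, and MMP1B has no value here.

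**Figure D2:**
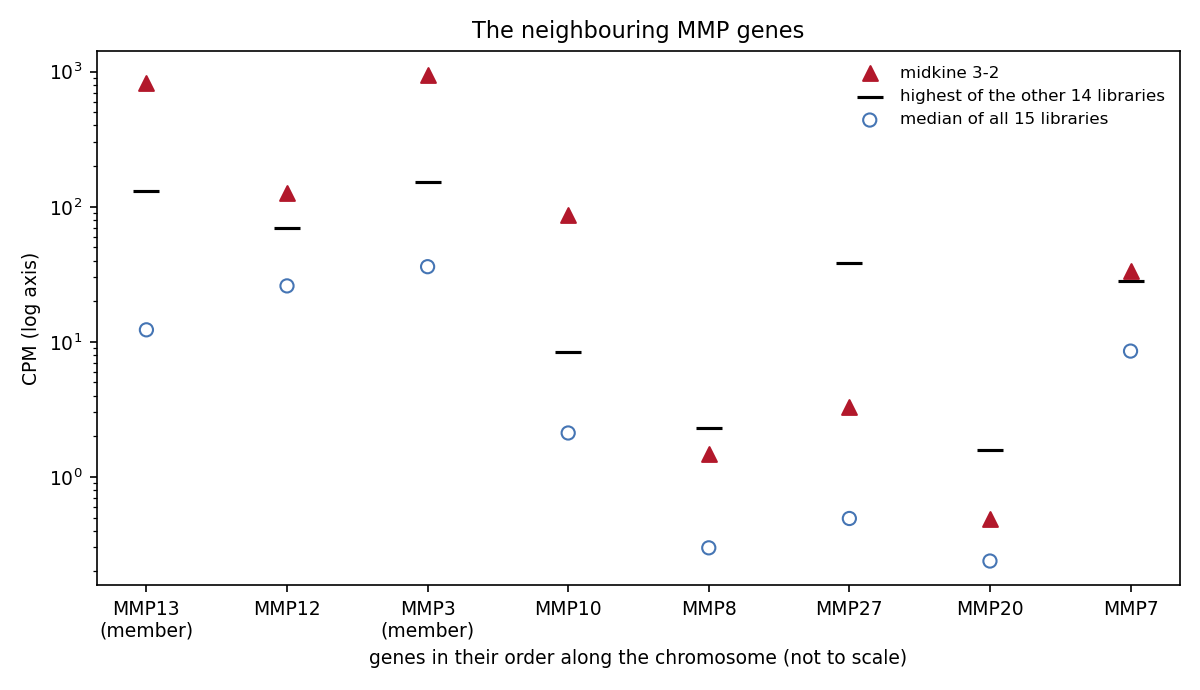
Level in CPM, on a log axis, of the neighbouring MMP genes in their order along the chromosome: triangles are midkine 3-2, bars the highest of the other 14 libraries and circles the median of all 15. Midkine 3-2 lies above all other libraries for MMP13, MMP12, MMP3, MMP10 and MMP7, but not for MMP8, MMP27 or MMP20; MMP1, with 0 reads, and MMP1B are not drawn.

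MMP9 encodes gelatinase B, an enzyme that cuts denatured collagen and basement membrane collagen and that neutrophils, macrophages and osteoclasts are known to make. Its counts were low, 1100 reads in all. It ran from 0.24 through a median of 12.0 to 29.7 CPM in midkine libraries and from 0.52 through a median of 1.71 to 12.9 CPM in vehicle libraries. In 8 of the 9 midkine libraries the level was above the vehicle median, and midkine 3-2, 4-2, 4-3 and 6 exceeded every vehicle library, while midkine 1 was the lowest of all 15. The log2 fold change was 1.69 (SE 0.85, edgeR adjusted p = 0.528). It did not depend on 1 library in the way of MMP13: it ran from 1.45 without vehicle 6 to 2.42 without vehicle 5, and was 1.20 (SE 1.01) without midkine title numbers 3 and 4. Of 10 neutrophil markers, 8 had too few reads to be tested. Their sum ran from 18.3 to 156 CPM in midkine libraries, highest in midkine 4-2, and from 14.9 to 41.2 CPM in vehicle libraries, with FPR1 at 0 in all 15. Against summed marker lists over the 15 libraries, Pearson's r of MMP9 was 0.47 for neutrophil markers (permutation adjusted p = 0.272). For macrophage and osteoclast markers it was 0.28 each (permutation adjusted p = 0.546 for both). Its largest positive r was 0.56, with general epithelial markers (permutation adjusted p = 0.19). None of these passed 0.05. The part of any of these cell types in the MMP9 values was not tested.

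MMP2, MMP14 and TIMP2 belong together in textbook biology, since the membrane-bound enzyme MMP14 activates the precursor of gelatinase A, the product of MMP2, in a complex that includes TIMP2. MMP2 ran from 61.3 through a median of 217 to 2174 CPM in midkine libraries and from 47.6 through a median of 185 to 358 CPM in vehicle libraries. MMP14 ran from 235 through a median of 417 to 3021 CPM in midkine libraries and from 302 through a median of 433 to 814 CPM in vehicle libraries. For both genes the medians of the groups lay close together and the highest value was that of midkine 5, 3.66 and 3.71 times the next library. Their log2 fold changes were 1.22 (SE 0.75, edgeR adjusted p = 0.614) for MMP2 and 0.52 (SE 0.53, edgeR adjusted p = 0.803) for MMP14. Without midkine 5 these were 0.25 (SE 0.51) and -0.21 (SE 0.30), so the direction of MMP14 turned, and without midkine title numbers 3 and 4 they were 1.79 (SE 0.93) and 1.10 (SE 0.64). DESeq2, which may replace outlying midkine counts, gave 0.25 for MMP2, as did edgeR without midkine 5.

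TIMP2 ran from 94.0 through a median of 219 to 881 CPM in midkine libraries and from 84.6 through a median of 138 to 246 CPM in vehicle libraries. Midkine 5 was 3.48 times the next library, and 8 of the 9 midkine libraries lay above the vehicle median, although only midkine 4-1, 4-2 and 5 exceeded every vehicle library. The means were 273 ± 234 CPM in midkine (SD, n = 9) and 154 ± 66.4 CPM in vehicle (SD, n = 6), with a log2 fold change of 0.82 (SE 0.42, edgeR adjusted p = 0.544). Without midkine 5 it was 0.36 (SE 0.27), and without midkine title numbers 3 and 4 it was 1.14 (SE 0.58). In the GRCr8 gene table TIMP2 overlaps CEP295NL, which had 84 reads against 23539 of TIMP2.

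MMP11 encodes stromelysin 3, first described in the fibroblasts around human breast carcinomas, and it was the only gene of the 9 with a fold change below 0. It was also the gene with the narrowest range over all libraries, from 10.9 through a median of 14.1 to 28.0 CPM in midkine libraries and from 8.16 through a median of 16.1 to 28.5 CPM in vehicle libraries. All 9 midkine libraries lay within the range of the vehicle libraries. The log2 fold change was -0.15 (SE 0.30, edgeR adjusted p = 0.909), and 0.04 (SE 0.30) without vehicle 2-2. MMP11 overlaps CHCHD10 in the gene table. CHCHD10 had 12068 reads against 1774 of MMP11, and the sources used here do not say whether counting used strand, so reads of the pair may not be fully told apart.

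TIMP1 encodes an inhibitor of most secreted metalloproteinases. It ran from 25.5 through a median of 111 to 501 CPM in midkine libraries and from 32.6 through a median of 51.6 to 136 CPM in vehicle libraries. Midkine 3-2 was 3.67 times the next library; 7 of the 9 midkine libraries lay above the vehicle median, while midkine 1 and 2 were the lowest of all 15. The means were 134 ± 144 CPM in midkine (SD, n = 9) and 63.2 ± 37.9 CPM in vehicle (SD, n = 6). The log2 fold change was 1.08 (SE 0.57, edgeR adjusted p = 0.555). It was 0.48 (SE 0.42) without midkine 3-2 and 0.03 (SE 0.51) without midkine title numbers 3 and 4.

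TIMP3 encodes an inhibitor that binds to the matrix and also blocks sheddases such as ADAM17. Its level was between 44.3 and 214 CPM in midkine libraries (median 78.7 CPM) and between 52.1 and 104 CPM in vehicle libraries (median 92.3 CPM). Midkine 3-2 and 5 lay above all vehicle libraries and midkine 3-1 and 4-3 below all of them. The log2 fold change was 0.11 (SE 0.32, edgeR adjusted p = 0.943), and it turned to -0.15 (SE 0.25) without midkine 3-2 and to -0.04 with scaling by the deposited totals alone. TIMP1 and TIMP3 lie within the genes SYN1 and SYN3 in the gene table, which had 230 and 53 reads, against 11910 of TIMP1 and 9712 of TIMP3.

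**Figure D3:**
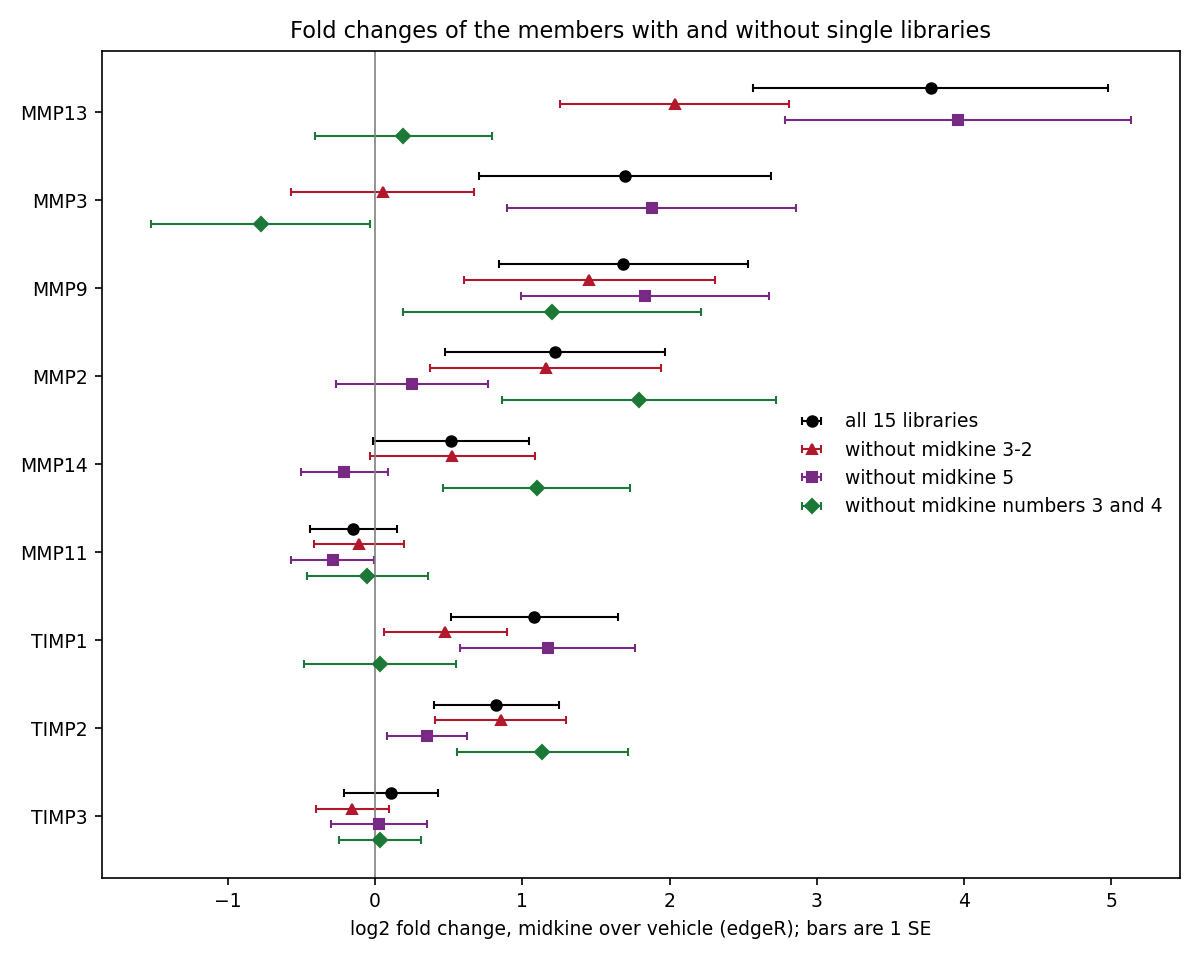
Log2 fold change of midkine over vehicle by edgeR for each gene, with bars of 1 SE, from all 15 libraries and from fits without midkine 3-2, without midkine 5 and without all 5 midkine libraries numbered 3 and 4. The value of MMP3 is 0.05 without midkine 3-2, against 1.69 with all libraries, that of MMP2 is 0.25 without midkine 5, against 1.22, and that of MMP9 lies between 1.20 and 1.83 in all 4 fits.

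Across the 15 libraries the pairs that varied together joined 7 of the 9 genes into 2 sets, leaving MMP9 and MMP11 outside, with TIMP3 joined through MMP2 alone. Pearson's r of log2 CPM was computed for all 36 pairs, with p-values from 100000 permutations adjusted by the Benjamini-Hochberg method over the 36, and 7 pairs passed 0.05. Of these, 4 joined MMP2 with MMP14, TIMP2 and TIMP3 or MMP14 with TIMP2, and 3 joined MMP3, MMP13 and TIMP1 with each other. No pair across the sets passed by r. Libraries with the same title number may share an animal, which would make them less than independent.

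In the first set, MMP2 and TIMP2 had r = 0.89 (permutation adjusted p = 0.0018) and Spearman's rho = 0.81 (permutation adjusted p = 0.0133). Without vehicle 5 and midkine 5, the libraries farthest from the MMP2 median, r was 0.69. MMP2 and MMP14 had r = 0.84 (permutation adjusted p = 0.00432), rho = 0.73 (permutation adjusted p = 0.0248) and 0.75 without the same libraries. Both relations were present in each group, with r of 0.87 and 0.89 within midkine and 0.95 and 0.72 within vehicle. MMP14 and TIMP2 had r = 0.80 (permutation adjusted p = 0.015), but rho = 0.48 (permutation adjusted p = 0.193). Without vehicle 4 and midkine 5 the r of this pair was lower, 0.43, and that value was not tested. Within the groups its r was 0.85 in midkine and 0.86 in vehicle. MMP2 and TIMP3 had r = 0.69 (permutation adjusted p = 0.0336), rho = 0.74 (permutation adjusted p = 0.0248) and 0.63 without vehicle 5 and midkine 5. Without midkine title numbers 3 and 4 r was 0.94 for MMP2 with TIMP2, 0.90 for MMP2 with MMP14, 0.96 for MMP14 with TIMP2 and 0.85 for MMP2 with TIMP3, and all 4 pairs passed.

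In the second set, MMP13 and TIMP1 had r = 0.85 (permutation adjusted p = 0.00252) and rho = 0.74 (permutation adjusted p = 0.0248), with r = 0.73 without midkine 3-1 and 3-2. MMP3 and MMP13 had r = 0.80 (permutation adjusted p = 0.013) and rho = 0.66 (permutation adjusted p = 0.0475), with r = 0.74 without vehicle 6 and midkine 3-2. MMP3 and TIMP1 had r = 0.67 (permutation adjusted p = 0.0462) and rho = 0.48 (permutation adjusted p = 0.193), with r = 0.58 without the same libraries and r = 0.34 without midkine 3-2 alone. Within midkine these 3 pairs had r of 0.93, 0.90 and 0.82, and within vehicle -0.05, 0.12 and -0.06. The difference between the groups was not tested, and MMP13 spanned a narrow range in vehicle. Without midkine title numbers 3 and 4 r was 0.58, 0.40 and 0.17 for the 3 pairs, and none passed. The number of pairs that passed was 4 without midkine 3-2, against 7 with all libraries.

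MMP9 had r = 0.54 to MMP13 (permutation adjusted p = 0.145) and r = -0.46 to MMP11 (permutation adjusted p = 0.2). By rho, MMP2 with TIMP1 (rho = 0.68, permutation adjusted p = 0.037) and TIMP1 with TIMP2 (rho = 0.71, permutation adjusted p = 0.0248) also passed. TIMP1 did not pass by rho with the other genes of the first set, MMP14 (rho = 0.55, permutation adjusted p = 0.12) and TIMP3 (rho = 0.24, permutation adjusted p = 0.507).

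**Figure D4:**
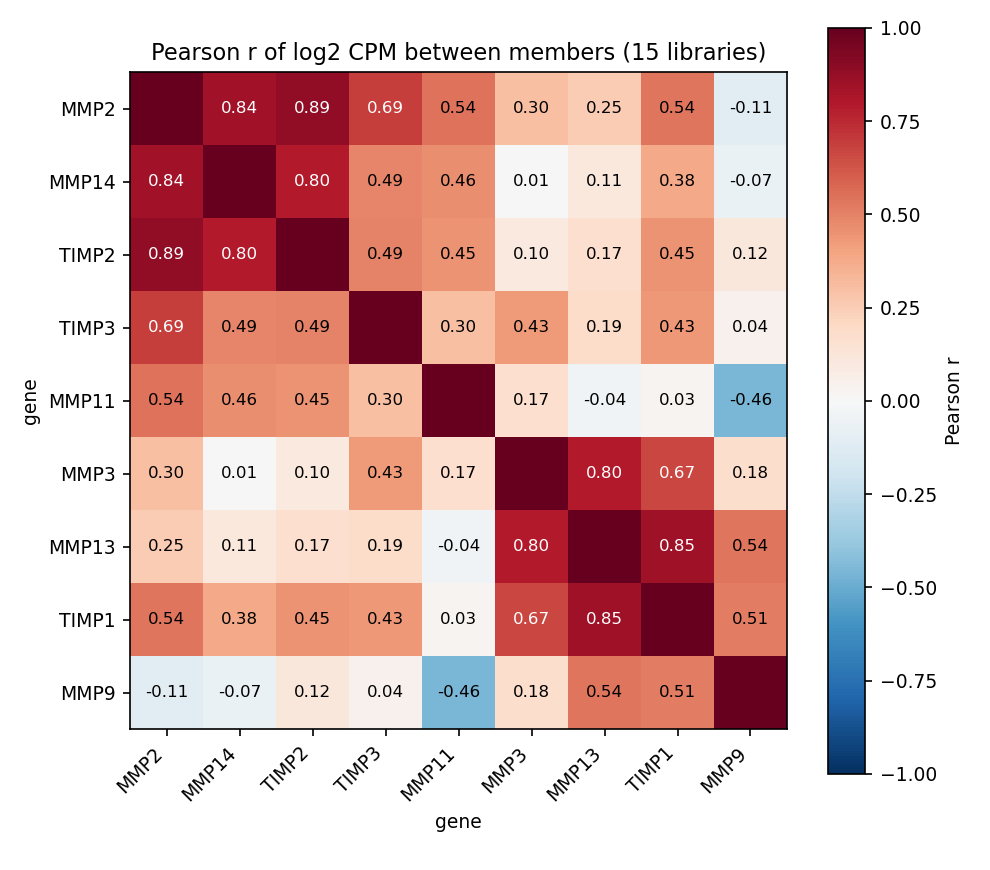
Pearson's r of log2 CPM between each pair of the 9 genes over 15 libraries, on a colour scale from -1 to 1. The 3 pairs among MMP2, MMP14 and TIMP2 have r of 0.80 to 0.89 and the 3 among MMP3, MMP13 and TIMP1 have r of 0.67 to 0.85, while TIMP3 has 0.69 with MMP2 and 0.49 with both MMP14 and TIMP2, below some pairs outside the sets such as MMP2 with MMP11 (0.54).

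Summed fibroblast markers, weighted to 2 collagen genes named below, varied with MMP2 and TIMP2 of the first set. The summed level of 10 fibroblast markers, of which 9 had enough reads to be tested and COL1A2 had 28 reads in all, correlated with MMP2 (r = 0.91, permutation adjusted p = 0.0027; rho = 0.85, permutation adjusted p = 0.00504) and with TIMP2 (r = 0.86, permutation adjusted p = 0.0099; rho = 0.84, permutation adjusted p = 0.00504). These are 2 of 90 relations between a gene and a marker list, over which p was adjusted, and 4 of the 90 passed by r. For MMP2, r was 0.91 within midkine, 0.93 within vehicle and 0.77 without the libraries farthest from its median, and for TIMP2 it was 0.82, 0.93 and 0.62. The other relations that passed joined TIMP2 with endothelial markers (r = 0.74, permutation adjusted p = 0.0252; rho = 0.77, permutation adjusted p = 0.0185; 0.68 without its farthest libraries) and with the 4 osteoclast markers in the table (r = 0.89, permutation adjusted p = 0.0036; rho = 0.83, permutation adjusted p = 0.00504; 0.80 without them). Of those, CTSK was highest in midkine 5 (450 CPM), where fibroblast markers also peaked, and CALCR had 11 reads in all. By rho alone TIMP2 also passed with the macrophage markers (rho = 0.70, permutation adjusted p = 0.0325; r = 0.35, permutation adjusted p = 0.512). MMP14 and fibroblast markers had r = 0.73 (permutation adjusted p = 0.0802) and rho = 0.59 (permutation adjusted p = 0.105), and r = 0.28 without vehicle 4 and midkine 5. The summed fibroblast markers ran from 288 through a median of 5354 to 131412 CPM in midkine libraries. In vehicle libraries they ran from 562 through a median of 1866 to 8917 CPM. The sum is weighted to the collagen genes COL1A1 and COL3A1, which gave 82114 and 44905 CPM of it in midkine 5. Relations with the other fibroblast markers alone were not tested, nor was the part of fibroblasts in the MMP2 and TIMP2 values.

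No marker list passed with MMP3, MMP13 or TIMP1 by r, but 6 relations passed by rho. TIMP1 followed the order of the fibroblast markers (rho = 0.81, permutation adjusted p = 0.00504; r = 0.49, permutation adjusted p = 0.24), of the macrophage markers (rho = 0.71, permutation adjusted p = 0.0325; r = 0.40, permutation adjusted p = 0.405) and of the osteoclast markers (rho = 0.71, permutation adjusted p = 0.0325; r = 0.40, permutation adjusted p = 0.407). MMP3 followed the T and B cell markers (rho = 0.75, permutation adjusted p = 0.0197; r = 0.63, permutation adjusted p = 0.143) and ran against the muscle markers (rho = -0.85, permutation adjusted p = 0.00504; r = -0.54, permutation adjusted p = 0.227). MMP13 also ran against the muscle markers (rho = -0.76, permutation adjusted p = 0.0185; r = -0.67, permutation adjusted p = 0.137), with r = -0.73 within midkine and -0.05 within vehicle. In midkine 3-2, where MMP13, MMP3 and TIMP1 peaked, epithelial markers summed to 12734 CPM, the highest of the 15 libraries. CLDN4 alone gave 4494 CPM of that sum. Among midkine libraries EPCAM, CDH1 and CLDN3 were also highest in midkine 3-2, and KRT8, KRT18, KRT19 and CLDN7 in midkine 4-3. T and B cell markers summed to 368 CPM in midkine 3-2, below midkine 4-2 alone. Macrophage markers summed to 555 CPM in midkine 3-2, the median of the midkine libraries. They ran from 352 to 3032 CPM in midkine libraries and from 257 to 778 CPM in vehicle libraries. Neutrophil markers summed to 95.9 CPM in midkine 3-2, below midkine 4-2 alone (156 CPM). Midkine 4-2, which also had the highest macrophage markers, had 12.3 CPM of MMP13, within the vehicle range. Its MMP3 level was 60.6 CPM, above the vehicle median of 27.8 CPM. Each of these is a single library. The part of these cells in the levels was not tested.

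**Figure D5:**
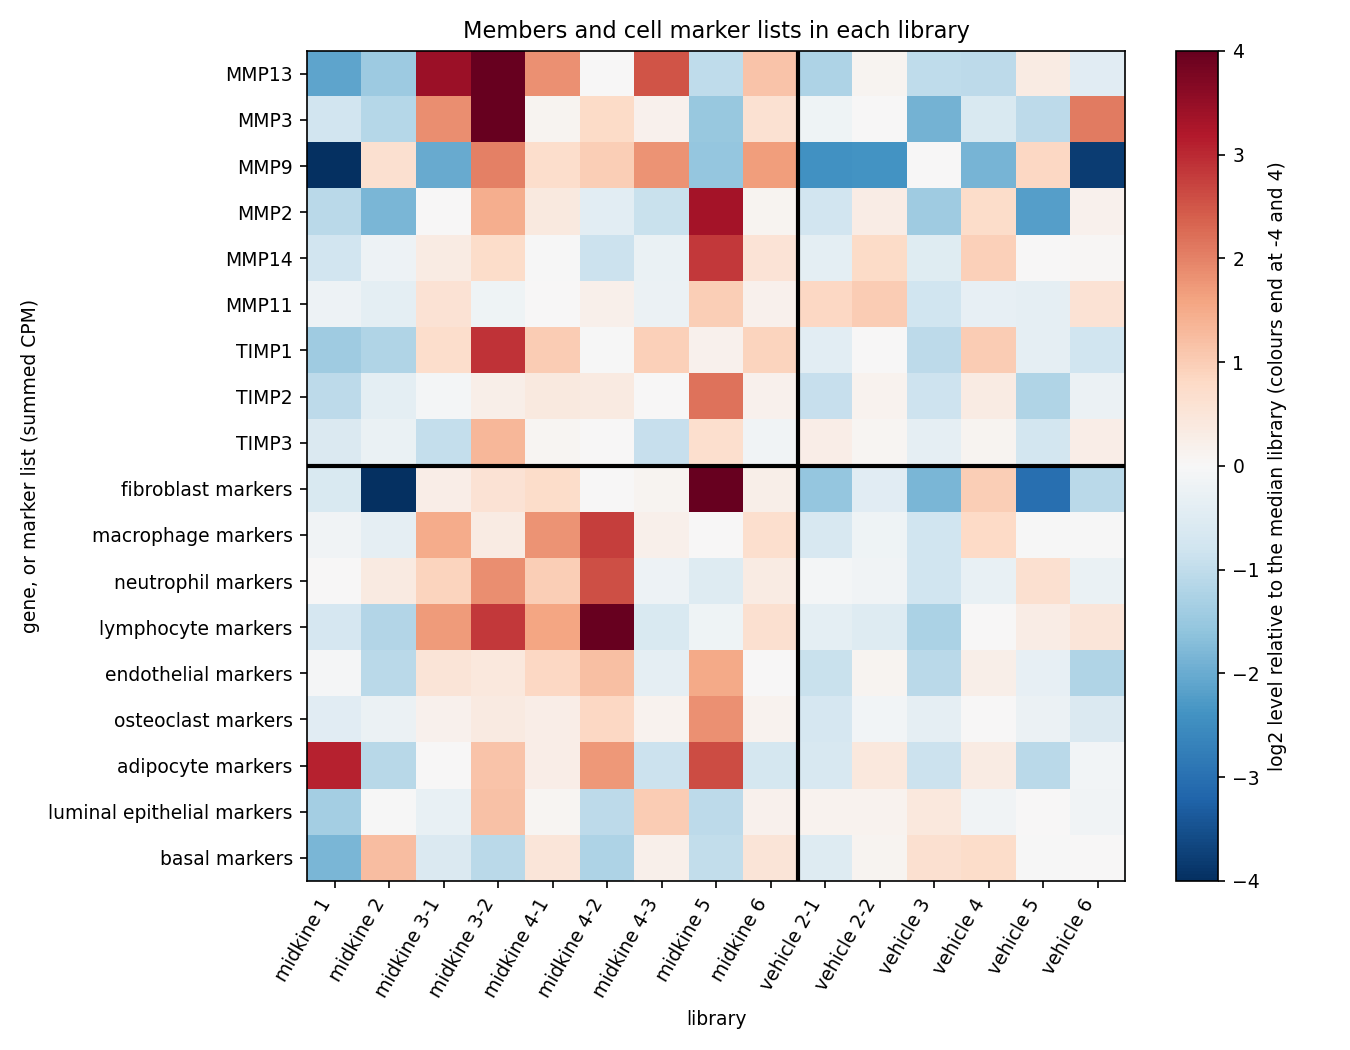
Log2 level of each of the 9 genes and of the summed CPM of each marker list except muscle, relative to the median library. Midkine libraries are left of vehicle libraries, and colours end at -4 and 4. MMP2, MMP14, TIMP2 and the fibroblast markers are highest in midkine 5. MMP13, MMP3 and the epithelial markers are highest in midkine 3-2, and the macrophage markers in midkine 4-2.

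Ratios of protease to inhibitor within a library were set side by side, on the log2 scale and with no test. MMP13 over TIMP1 had a mean of -1.75 ± 1.50 in midkine (SD, n = 9) and -2.75 ± 1.00 in vehicle (SD, n = 6), and it was highest in midkine 3-2 (0.71) and midkine 3-1 (0.24). MMP14 over TIMP2 was 1.18 ± 0.59 in midkine and 1.72 ± 0.33 in vehicle, with its lowest value, -0.09, in midkine 4-2. MMP9 over TIMP1 was -3.73 ± 1.84 in midkine and -4.55 ± 1.93 in vehicle. MMP2 over TIMP2 was 0.07 ± 0.88 in midkine and 0.08 ± 0.57 in vehicle. MMP3 over TIMP1 was -0.83 ± 1.11 in midkine and -0.91 ± 1.56 in vehicle, and MMP11 over TIMP3 was -2.42 ± 0.80 in midkine and -2.39 ± 0.55 in vehicle. For MMP14 over TIMP2 the difference between the group means, -0.54, was smaller than the SD within midkine and larger than the SD within vehicle, and the other 5 differences were smaller than the SD of either group. The value of a ratio depends on transcript length, so only its differences between libraries can be read.

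The genes whose order over the 15 libraries was most like that of each member were named by Spearman's rho among all genes tested, as a description. For MMP3 the nearest was its neighbour MMP10 (rho = 0.91, r = 0.94), followed by the cytokine gene LIF (rho = 0.91) and the interferon-gamma receptor gene IFNGR2 (rho = 0.90). For MMP13 it was the urokinase receptor gene PLAUR (rho = 0.89, r = 0.86), followed by ECM1 (rho = 0.88) and POLR1H (rho = 0.87). MMP9 was nearest to ARF6 (rho = 0.94), the interleukin-1 receptor antagonist gene IL1RN (rho = 0.93) and CLIC1 (rho = 0.92). Matrix genes stood near MMP2, namely SMOC2 (rho = 0.93) and ADAMTS12 (rho = 0.91), with TMEM184B (rho = 0.93) between them, and near TIMP2, namely ADAMTS14 (rho = 0.95) and the fibrillin gene FBN1 (rho = 0.91), with CLEC11A (rho = 0.92). MMP14 was nearest to LMO1 (rho = 0.91), PCDH18 (rho = 0.90) and CDC42BPB (rho = 0.84). TIMP1 was nearest to the tenascin gene TNC (rho = 0.88), RAI14 (rho = 0.87) and ADAMTS7 (rho = 0.86), TIMP3 to ARHGAP21 (rho = 0.91), STOX2 (rho = 0.88) and KREMEN1 (rho = 0.87), and MMP11 to GALNS, FCSK and MAOB (rho = 0.85 each).

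Other genes of the system were read from the same fit, and none of them passed the threshold by edgeR. Of all genes tested 55.7% were above 0, with a median log2 fold change of 0.04, and the counts of each list stand beside that share. Of 11 other MMP and TIMP genes tested, 7 were above 0 and 4 below, with a median log2 fold change of 0.40, and 0.08 without midkine title numbers 3 and 4. MMP23, a membrane-anchored metalloproteinase, averaged 13.6 ± 12.4 CPM in midkine (SD, n = 9) and 4.75 ± 3.09 CPM in vehicle (SD, n = 6), a log2 fold change of 1.51 (SE 0.69). MMP10 had 2.11 (SE 1.12), and -0.69 without midkine title numbers 3 and 4, and the membrane-type MMP15 had -0.50 (SE 0.26).

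Among ADAM proteases 5 of 6 were above 0, with a median of 0.30, but without midkine title numbers 3 and 4 only 2 of 6 were, with a median of -0.07. ADAM19 averaged 80.2 ± 80.7 CPM in midkine and 13.1 ± 6.27 CPM in vehicle (log2 fold change 2.61, SE 0.64, edgeR adjusted p = 0.399), and DESeq2 called it (adjusted p = 0.00781). It was highest in midkine 4-2 (220 CPM), and 7 of the 9 midkine libraries lay above the highest vehicle library. Without midkine title numbers 3 and 4 its log2 fold change was 1.42 (SE 0.50). ADAM33 had 1.14 (SE 0.71) and ADAM17, which sheds growth factors and cytokines from the cell surface, had 0.30 (SE 0.23). Of 13 ADAMTS proteases 11 were above 0, with a median of 0.69, and 9 of 13 without midkine title numbers 3 and 4, with a median of 0.37: ADAMTS5, an aggrecanase, had 1.46 (SE 0.48), ADAMTS14 had 1.91 (SE 0.78) and the procollagen protease ADAMTS2 had 1.37 (SE 0.63).

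Genes that activate, bind or block these enzymes numbered 18 tested, 11 above 0 and 7 below, against 55.7% of all genes tested above 0. Their median was 0.39, and 0.11 without midkine title numbers 3 and 4. The urokinase gene PLAU ran from 21.7 through a median of 50.0 to 4011 CPM in midkine libraries and from 13.5 through a median of 18.9 to 29.5 CPM in vehicle libraries, with a log2 fold change of 4.57 (SE 1.44). Its receptor gene PLAUR had 2.97 (SE 1.04). Both were highest in midkine 3-2, the library in which MMP3, MMP13 and TIMP1 peaked, and stood at 0.84 (SE 0.30) and 0.36 (SE 0.32) without midkine title numbers 3 and 4. DESeq2, which may replace outlying midkine counts, called PLAU (log2 fold change 1.01, adjusted p = 0.0322).

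Of 14 tested genes of cytokines and transcription factors known to raise metalloproteinase transcription, 11 were above 0, with a median of 0.77, and of -0.003 without midkine title numbers 3 and 4. IL1B, the gene of interleukin-1 beta, had 3.07 (SE 1.10), with 186 CPM in midkine 3-2. FOSL2, a subunit of the AP-1 factor, had 1.50 (SE 0.55), with 73.8 CPM in midkine 3-2, and ETS1 had 1.90 (SE 0.69), with its highest level, 862 CPM, in midkine 4-2. FOSL1, another AP-1 subunit, was chosen outside the naming rule after its values were seen. It stood at 505 CPM in midkine 3-2, and its median was 7.92 CPM in midkine libraries and 5.57 CPM in vehicle libraries. The AP-1 genes FOS, FOSB, JUN and JUNB of the same list are not given here, and any link to the promoter matches was not tested. Of 14 matrix proteins that metalloproteinases cut, 11 were above 0, with a median of 0.78, and of 0.69 without midkine title numbers 3 and 4. The vitronectin gene VTN averaged 24.3 ± 6.26 CPM in midkine and 14.6 ± 2.94 CPM in vehicle (log2 fold change 0.73, SE 0.20), and DESeq2 called it (adjusted p = 0.0428). The biglycan gene BGN had 1.41 (SE 0.46) and the versican gene VCAN had -0.86 (SE 0.32).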

How the data were processed

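RNA of 15 rat mammary tumour pieces (9 midkine, 6 vehicle) was made into poly(A) libraries and sequenced by a company as 150-bp paired ends, per the labels' protocols. The authors deposited raw read counts per gene symbol, made with the aligner STAR per the file's name. The build was rn6 per the submitters' processing notes. For annotation, counting mode and strand setting, nothing is given in the sources used here. All columns were mapped to samples by title (0 unmapped). No libraries of a group were duplicates, with a lowest chi-square per degree of freedom of 20.3 over 51 pairs.

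Genes kept by filterByExpr were scaled by TMM and tested with edgeR 4.0.16 (quasi-likelihood, R 4.3.3), with Benjamini-Hochberg adjustment over all genes tested and a threshold of 0.05. Fold changes are midkine over vehicle. The fit was checked on simulated counts. DESeq2 1.42.0, limma-voom 3.58.1, other scalings, no filter, summed libraries, a replicate block and left-out libraries were alternatives. Correlations used log2 CPM with a prior count of 2 and two-sided permutation tests. "Farthest" libraries are those farthest from the median of the first-named gene.

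The genes and lists were chosen with earlier results of these data known. The 9 genes are given in full, and by rule up to 3 genes of smallest p from each pathway list and the 3 highest Spearman's rho to each member were named; 1 gene is not reported here. Symbols were matched to RefSeq's GRCr8 tables for names, order and promoters only. MMP2, MMP9 and MMP14 have no promoter shown.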

Additional observations from a re-analysis of the deposited data

Results flagged for a closer look

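In 22 of 64 groups of values, 1 library lay farther from its nearest neighbour than Dixon's limit allows. For independent, normally distributed values chance flags about 1 in 20. These are skewed CPM of genes that vary together, so that rate does not apply as it stands. Midkine 3-2 accounted for 9 of the 22 and midkine 5 for 6, with 3 in vehicle 4, 2 in vehicle 5 and 2 in vehicle 6.

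Within midkine, library 3-2 stood apart for MMP13 (821 CPM), MMP3 (945 CPM), its neighbour MMP10 (86.6 CPM) and TIMP1 (501 CPM). The same library stood apart for PLAU (4011 CPM), PLAUR (556 CPM), ADAM17 (249 CPM), IL1B (186 CPM) and FOSL2 (73.8 CPM). Midkine 5 stood apart for MMP2 (2174 CPM), MMP14 (3021 CPM), TIMP2 (881 CPM), ADAM33 (56.3 CPM), ADAMTS5 (49.0 CPM) and ADAMTS2 (205 CPM).

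Within vehicle, library 4 stood apart for TIMP1 (136 CPM), ADAMTS2 (49.7 CPM) and BGN (347 CPM). Vehicle 6 did so for MMP3 (153 CPM) and MMP10 (8.39 CPM). Vehicle 5 did so for IL1B (6.94 CPM) and for the log2 ratio of MMP14 to TIMP2 (2.33).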

How the results depend on the processing

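None of the 9 genes passed the threshold under any alternative run. Over all alternatives 238 fold changes kept their direction and 14 did not. DESeq2 called 83 of all genes, against 0 by edgeR. The direction turned for MMP3 without midkine title numbers 3 and 4 (-0.78). It turned for MMP14 without midkine 5 (leave-one-out range -0.21 to 0.71) and without midkine 3-2 and midkine 5 together (-0.35), which also turned MMP2 (-0.16) and TIMP3 (-0.33). That last alternative was added after seeing the data. MMP11 turned with shared title numbers summed (0.046) and ran from -0.29 to 0.045 with 1 library left out. TIMP3 turned with deposited totals (-0.040), limma-voom (-0.032) and mean log2 CPM (-0.029 with a prior count of 2 and -0.030 with 0.5), and ran from -0.15 to 0.20 with 1 library left out. The causes were not tested. Deposited totals shifted the median of all genes to -0.10, with 36.0% above 0, against 55.7%.

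The title numbers were not taken to pair the groups. Same-numbered libraries had correlations of deviations of -0.19, -0.24, 0.14, -0.19 and -0.17. No reference from differently numbered libraries was computed, so these values cannot exclude a shared batch or order behind the numbers. With the title number as a replicate block 0 genes passed, and 323 had an unadjusted p under 0.05, against 1178. Under the block MMP13 was 1.56 (unadjusted p = 0.223, edgeR), MMP3 0.29, MMP2 0.35, MMP14 0.17, TIMP1 0.61 and MMP9 2.21 (unadjusted p = 0.0416, edgeR), and MMP11 turned to 0.20.

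The number of correlated pairs was 7, and 4 to 9 with 1 library left out. Without midkine title numbers 3 and 4 it was 5, with TIMP2 and TIMP3 passing (r = 0.77, permutation adjusted p = 0.0427). Low counts limit MMP9 and MMP11, with 1100 and 1774 reads in all.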
